A study of Homo sapiens with 8 samples.

Results

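The 10 genes described here encode the core of the machinery that silences transposons through methylation of histone H3 at lysine 9: the corepressor TRIM28 (KAP1), the methyltransferase SETDB1 with its partner ATF7IP, the HUSH complex subunits MPHOSPH8, TASOR and PPHLN1 with the HUSH-associated ATPase MORC2, and the HP1 proteins CBX1, CBX3 and CBX5. They were taken by symbol from the count table of the combined transcript assembly, keeping rows whose transcript also carries a gene name in the combined annotation. All 10 were found, with 86 of the 96614 transcript rows, among 20096 named genes. The study sequenced full-length polyadenylated RNA of the human embryonic stem cell line H1 on PacBio Sequel II, before and after differentiation towards each germ layer, in 8 libraries. The 4 groups were undifferentiated cells (hPSC), Ectoderm, Endoderm and Mesoderm, with 2 repeats each. Ectoderm cells received A83-01, PNU-74654 and Dorsomorphin, each at 2 µM. Endoderm cells received WNT3A and Activin A (100 ng/ml). Mesoderm cells received VEGF (100 ng/ml), BMP4 (100 ng/ml) and bFGF (10 ng/ml), with Activin A (100 ng/ml) for the first 24 h. The 3 differentiated groups were collected after 5 days. All groups come from 1 cell line.

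In this pathway, KRAB zinc finger proteins bind transposon DNA and recruit TRIM28, which brings SETDB1 to methylate histone H3 lysine 9. ATF7IP keeps SETDB1 stable and nuclear, HUSH binds the methylated chromatin and nascent RNA and recruits MORC2, and HP1 proteins read the mark and help to compact the chromatin. Embryonic stem cells depend on this system to hold endogenous retroviruses silent.

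The transcripts of TRIM28 and ATF7IP differ within coding sequence, and the stretches below show where. Sequences and reading frames are from GENCODE 29 on GRCh38, plus strand for both genes. TRIM28 has alternative first exons that splice to the same second exon. The long first exon holds the standard start codon and 340 coding bases (chr19:58544758-58545097), which encode the start of the protein and most of its RING finger. The short first exon is spliced at a donor 886 bases upstream, at position 58544211, and an annotated transcript (ENST00000593582.5) starts translation within it, 622 bases upstream of the standard start. Its 76 coding bases and the 340 of the long exon both leave 1 base over whole codons, and no stop codon lies between the upstream start and the end of exon 2. The first line gives the upstream junction with exon 2 in capitals, and the second gives the first 300 coding bases of the long exon (chr19:58544758-58545057) with the start codon in capitals.
TRIM28 upstream donor junction: tcacactctataaagTGGTGGACTGTCCCG
TRIM28 standard start: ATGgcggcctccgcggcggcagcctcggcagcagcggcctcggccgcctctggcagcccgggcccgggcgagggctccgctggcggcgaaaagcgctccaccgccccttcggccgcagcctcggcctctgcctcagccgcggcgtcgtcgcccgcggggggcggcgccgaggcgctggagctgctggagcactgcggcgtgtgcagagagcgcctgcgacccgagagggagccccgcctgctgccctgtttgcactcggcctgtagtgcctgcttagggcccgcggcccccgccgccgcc
A further TRIM28 transcript (ENST00000341753.10) skips exons 2 and 3, printed next (chr19:58545425-58545537 and chr19:58545764-58545896). Together they hold 246 bases, or 82 whole codons, with the end of the RING finger and the first B-box.
TRIM28 exon 2: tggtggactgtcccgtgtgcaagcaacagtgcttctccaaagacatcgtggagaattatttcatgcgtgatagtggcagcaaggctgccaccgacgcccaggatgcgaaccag
TRIM28 exon 3: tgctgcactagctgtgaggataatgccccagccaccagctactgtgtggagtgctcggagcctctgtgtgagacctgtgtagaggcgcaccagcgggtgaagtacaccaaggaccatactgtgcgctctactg
In ATF7IP, some transcripts read past the donor at chr12 position 14481185 into the intron. The reading frame of ENST00000543189.5 ends there at a stop codon, 41 bases into the intron with the stop codon included. The transcript itself runs on to position 14482653. The first ATF7IP line gives the tail up to the stop codon (chr12:14481171-14481226) with intronic bases in capitals. The second gives the same exon end joined to the next exon in capitals. After the shared exon the spliced form encodes 177 codons, which include the C-terminal fibronectin type III domain.
ATF7IP read-through tail: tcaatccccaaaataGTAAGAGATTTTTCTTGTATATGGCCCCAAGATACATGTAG
ATF7IP next exon: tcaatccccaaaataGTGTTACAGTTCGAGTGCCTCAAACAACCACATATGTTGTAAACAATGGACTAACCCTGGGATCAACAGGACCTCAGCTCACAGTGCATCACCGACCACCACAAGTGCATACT

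Library totals were 503840 to 586183 counts in the hPSC, Endoderm and Mesoderm libraries, and 967206 and 1180888 in Ectoderm. The hPSC repeats differed in some genes: SOX2 had 71 and 5 counts and KDM1A 229 and 56. POU5F1 had 372 and 352 counts in the hPSC libraries, 5 and 16 in those of Ectoderm, 61 and 69 for Endoderm, and 1 and 5 for Mesoderm. Of the 8 hPSC markers tested, 5 fell in Ectoderm, 4 in Endoderm and 7 in Mesoderm. In Endoderm NANOG (92 and 65 counts), TDGF1 (452 and 351), LIN28A and L1TD1 did not pass. As counts scaled to library size (CPM), endoderm markers summed to 2271 and 2387 in Endoderm and 0 in hPSC, and ectoderm markers to 1060 and 827 in Ectoderm. In Mesoderm the mesoderm list summed to 1058 and 1151 CPM, yet TBXT had 1 and 0 counts, KDR 1 and 1, and MIXL1, MESP1 and FOXF1 had 0. A list of 9 amnion or trophoblast markers summed to 6660 and 7352 CPM there, against 14.5 to 80.3 elsewhere, and all 8 tested rose; their part in the Mesoderm results was not tested. The mean transcript length behind a count was 4406 and 4650 nt in Ectoderm, 3765 and 3840 in Mesoderm, 3298 and 3114 in hPSC, and 3073 and 2975 in Endoderm. Genes with transcripts under 2000 nt had a median log2 change of -1.31 in Ectoderm against hPSC, and those of 8000 nt or more 1.26, so each member's transcript length is given with its values.

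Levels below are CPM scaled by edgeR's TMM factors, with mean ± SD over 2 libraries, and compare a gene between groups, not genes with each other. Changes are log2 with standard errors from edgeR's quasi-likelihood fit over all genes, with Benjamini-Hochberg adjusted p-values and a threshold of 0.05. All 10 members passed the filter on low counts, but not through every group: both libraries were over it only in Ectoderm for TASOR, in Ectoderm and Mesoderm for MPHOSPH8, in hPSC and Ectoderm for MORC2, and in all groups but Endoderm for ATF7IP. A gene that enters through the group where it is high is bound to differ there, so the counts of members called are a description. In an overall test of any difference among the 4 groups, 9 of 10 members passed, against 77.7% of all 10843 genes tested. Against hPSC, 6 members passed in Ectoderm (48.7% of all genes), 4 of them higher (23.9%) and 2 lower (24.8%). In Endoderm 2 passed (27.2%), 0 higher (13.4%) and 2 lower (13.8%). In Mesoderm 5 passed (35.1%), 2 higher (16.9%) and 3 lower (18.3%). The 3 comparisons share the hPSC libraries. In bulk RNA, fewer cells expressing a gene and less RNA per cell cannot be told apart.

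**Figure D1:**
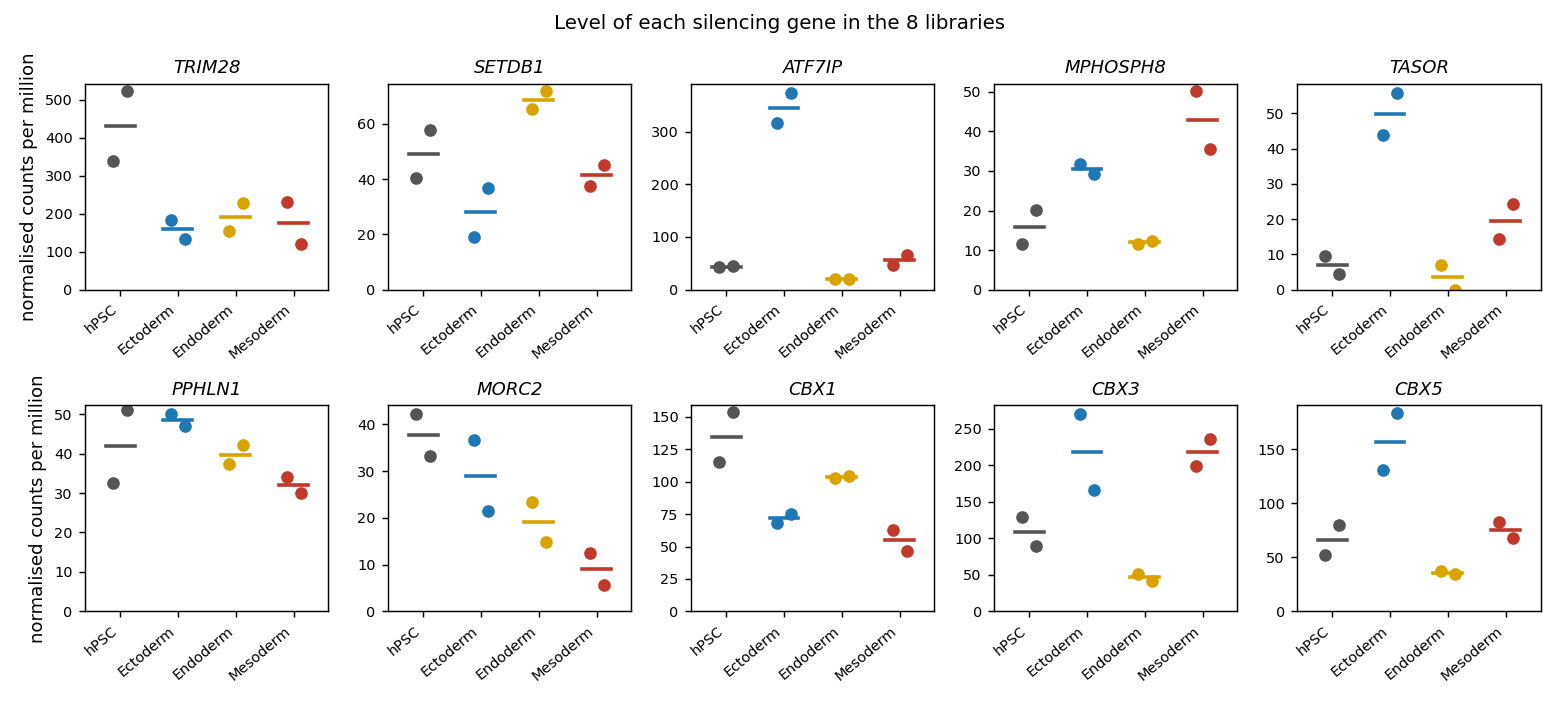
Level of each member in every library, as TMM-scaled CPM, by group. Each point is 1 library and the line is the group mean. TRIM28 stands highest in both hPSC libraries, and ATF7IP and TASOR in both Ectoderm libraries.

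TRIM28 was the member that fell in every layer. TRIM28 (ENSG00000130726.12, chr19:58544064-58550715, plus strand, mean transcript length 2973 nt) had 176 and 235 counts in the hPSC libraries, 260 and 157 in those of Ectoderm, 66 and 92 for Endoderm, and 129 and 64 for Mesoderm. Scaled levels were 430.3 ± 130.5 CPM for hPSC, then 159 ± 34.7 for Ectoderm, 191 ± 52.4 for Endoderm and 176 ± 78.4 for Mesoderm. Both hPSC libraries stood above all 6 others, while the layers overlapped one another. It fell by 1.43 in Ectoderm (SE 0.36, adjusted p = 0.00432), by 1.17 in Endoderm (SE 0.37, adjusted p = 0.0279) and by 1.29 in Mesoderm (SE 0.37, adjusted p = 0.013). Single libraries decided part of this. Without Ectoderm repeat 2 the Ectoderm change was -1.05 (adjusted p = 0.0966), and without Mesoderm repeat 2 the Mesoderm change was -0.81 (adjusted p = 0.197). The Endoderm change was -0.83 (adjusted p = 0.256) without Endoderm repeat 1, -1.38 (adjusted p = 0.0834) without Endoderm repeat 2, and -1.09 (adjusted p = 0.0502) without Ectoderm repeat 1. Counting reference-matching transcripts alone, which leaves out the form with the short first exon, gave -0.83 in Endoderm (adjusted p = 0.131) and -0.55 in Mesoderm (adjusted p = 0.285).

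SETDB1, the methyltransferase itself, passed the test in no layer against hPSC. SETDB1 (ENSG00000143379.13, chr1:150926305-150964737, plus strand, 4585 nt) had 21 and 26 counts in the hPSC libraries, 27 and 43 in those of Ectoderm, 28 and 29 for Endoderm, and 21 and 24 for Mesoderm. Its scaled levels were 49.1 ± 12.4, 27.9 ± 12.6, 68.6 ± 4.66 and 41.3 ± 5.26 CPM in that order. Endoderm lay above every other library and Ectoderm below every other, with Mesoderm overlapping hPSC. The changes were -0.82 (SE 0.38, adjusted p = 0.0893), 0.49 (SE 0.39, adjusted p = 0.385) and -0.24 (SE 0.40, adjusted p = 0.674). In Ectoderm the value was -1.27 (adjusted p = 0.0168) with the trend on transcript length removed and -1.07 (adjusted p = 0.0231) without hPSC repeat 1.

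ATF7IP, which stabilises SETDB1, had the largest change of any member against hPSC. ATF7IP (ENSG00000171681.13, chr12:14365670-14502936, plus strand, 6551 nt) had 22 and 20 counts in the hPSC libraries, 448 and 436 in those of Ectoderm, 9 and 8 for Endoderm, and 26 and 35 for Mesoderm. The means were 43.4 ± 1.57, 345 ± 40.3, 20.4 ± 0.820 and 56.1 ± 13.5 CPM. No 2 groups overlapped, with Ectoderm highest and Endoderm lowest. It rose by 2.99 in Ectoderm (SE 0.33, adjusted p = 7.89e-06), which is 2.15 with the length trend removed, and held in all 17 alternatives. The other changes were -1.08 in Endoderm (SE 0.42, adjusted p = 0.0715) and 0.37 in Mesoderm (SE 0.36, adjusted p = 0.446). The Endoderm change passed with each group's own assembly (-1.71, adjusted p = 0.0102) and with library totals alone (-1.43, adjusted p = 0.0164).

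Among the HUSH subunits, TASOR rose in Ectoderm and MPHOSPH8 in Mesoderm, and PPHLN1 passed in no layer against hPSC. TASOR, the scaffold of the complex (ENSG00000163946.14, chr3:56620129-56683265, minus strand, 7807 nt), had 5 and 2 counts in the hPSC libraries, 62 and 65 in those of Ectoderm, 3 and 0 for Endoderm, and 8 and 13 for Mesoderm. Its means were 7.03 ± 3.65, 49.7 ± 8.40, 3.50 ± 4.95 and 19.4 ± 7.12 CPM. Both Ectoderm libraries stood above all others, and hPSC and Endoderm overlapped at a few counts each. The rise in Ectoderm was 2.75 (SE 0.54, adjusted p = 8.22e-04), or 1.80 with the length trend removed (adjusted p = 0.0197), for a gene that passed the filter through Ectoderm alone. In Mesoderm the change was 1.40 (SE 0.68, adjusted p = 0.121), and in Endoderm -0.96 (SE 1.02, adjusted p = 0.524). With only 3 Endoderm counts, the ratio of hPSC to Endoderm was 2.00 with a 95% counting interval of 0.457 to 11.99, and that of Ectoderm to Endoderm 13.6 (4.56 to 67.0).

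MPHOSPH8, whose chromodomain binds methylated lysine 9 (ENSG00000196199.14, chr13:19631017-19673441, plus strand, 4586 nt), had 6 and 9 counts in the hPSC libraries, 45 and 34 in those of Ectoderm, 5 and 5 for Endoderm, and 28 and 19 for Mesoderm. Its means were 15.8 ± 6.002, 30.4 ± 1.88, 12.03 ± 0.518 and 42.9 ± 10.2 CPM. Mesoderm was highest and Ectoderm next, both clear of hPSC and Endoderm, which overlapped. It rose by 1.46 in Mesoderm (SE 0.44, adjusted p = 0.0171). MPHOSPH8 passed the filter through Ectoderm and Mesoderm alone, so this rise is a description. The changes in Ectoderm and Endoderm were 0.97 (SE 0.42, adjusted p = 0.0683) and -0.36 (SE 0.58, adjusted p = 0.688). The Mesoderm call was lost without hPSC repeat 1 (1.10, adjusted p = 0.0819), without Mesoderm repeat 1 (1.27, adjusted p = 0.105) and in DESeq2 (1.48, adjusted p = 0.207). The Ectoderm change passed with each group's own assembly (1.28, adjusted p = 0.0213), with library totals alone (1.43, adjusted p = 0.01), without hPSC repeat 2 (1.45, adjusted p = 0.0325) and without any 1 Endoderm or Mesoderm library (1.10, adjusted p = 0.045 to 0.0474).

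PPHLN1, the periphilin subunit (ENSG00000134283.18, chr12:42326145-42448621, plus strand, 2514 nt), had 17 and 23 counts in the hPSC libraries, 71 and 55 in those of Ectoderm, 16 and 17 for Endoderm, and 19 and 16 for Mesoderm. Its means were 41.9 ± 13.1, 48.6 ± 2.14, 39.7 ± 3.41 and 32.0 ± 2.83 CPM. All 3 layers overlapped hPSC, and PPHLN1 was the member that did not pass the overall test (adjusted p = 0.43). MORC2, the ATPase recruited by HUSH (ENSG00000133422.14, chr22:30925132-30969070, minus strand, 5116 nt), had 22 and 15 counts in the hPSC libraries, 52 and 25 in those of Ectoderm, 10 and 6 for Endoderm, and 7 and 3 for Mesoderm. Its means were 37.8 ± 6.29, 29.05 ± 10.8, 19.1 ± 5.97 and 9.08 ± 4.88 CPM. Both Mesoderm libraries lay below all others. MORC2 passed the filter through hPSC and Ectoderm alone, so its fall in Mesoderm is a description. It fell by 2.03 in Mesoderm (SE 0.54, adjusted p = 0.00834), with -1.52 (adjusted p = 0.118) without Mesoderm repeat 2 and -2.03 (adjusted p = 0.0998) in DESeq2. In Ectoderm and Endoderm it changed by -0.37 (SE 0.39, adjusted p = 0.45) and -0.98 (SE 0.49, adjusted p = 0.155). Over reference-matching transcripts the Endoderm change was -1.85 (adjusted p = 0.0443).

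The 3 HP1 genes did not move together. CBX1, HP1 beta (ENSG00000108468.15, chr17:48070052-48101478, minus strand, 2210 nt), had 60 and 69 counts in the hPSC libraries, 97 and 88 in those of Ectoderm, 44 and 42 for Endoderm, and 35 and 25 for Mesoderm. Its means were 134 ± 27.0, 71.9 ± 4.86, 103 ± 1.06 and 54.8 ± 11.1 CPM, and no 2 groups overlapped. CBX1 fell by 1.29 in Mesoderm (SE 0.32, adjusted p = 0.00614), where leaving out Mesoderm repeat 2 gave -1.02 (adjusted p = 0.101). In Ectoderm it fell by 0.90 (SE 0.30, adjusted p = 0.0206), a call that 12 of 17 alternatives did not keep. These include the length trend removed (-0.17, adjusted p = 0.676) and library totals alone (-0.42, adjusted p = 0.197). In Endoderm the change was -0.37 (SE 0.31, adjusted p = 0.406).

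CBX3, HP1 gamma (ENSG00000122565.19, chr7:26201162-26213607, plus strand, 2168 nt), had 67 and 40 counts in the hPSC libraries, 383 and 194 in those of Ectoderm, 22 and 17 for Endoderm, and 111 and 126 for Mesoderm. Its means were 109 ± 28.1, 218 ± 73.7, 46.7 ± 6.48 and 218 ± 26.6 CPM. Ectoderm and Mesoderm overlapped each other above hPSC, and Endoderm lay below. CBX3 rose by 1.00 in Ectoderm (SE 0.33, adjusted p = 0.0208) and by 0.99 in Mesoderm (SE 0.34, adjusted p = 0.0323), and fell by 1.22 in Endoderm (SE 0.39, adjusted p = 0.0281). Removing the length trend gave 1.72, 1.24 and -1.24. The Ectoderm value without Ectoderm repeat 1 was 0.73 (adjusted p = 0.167). Leaving out any of 5 libraries ended the Endoderm call (hPSC repeat 1, or any Endoderm or Mesoderm library), with adjusted p up to 0.224, and leaving out hPSC repeat 2 or either Mesoderm library ended the Mesoderm call, with adjusted p up to 0.157. DESeq2 kept neither (adjusted p = 0.071 and 0.0879).

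CBX5, HP1 alpha (ENSG00000094916.16, chr12:54230940-54280133, minus strand, 9608 nt), had 27 and 36 counts in the hPSC libraries, 185 and 214 in those of Ectoderm, 16 and 14 for Endoderm, and 46 and 36 for Mesoderm. Its means were 66.0 ± 19.9, 157 ± 37.2, 36.0 ± 1.85 and 74.9 ± 10.5 CPM. Ectoderm was highest and Endoderm lowest, and Mesoderm overlapped hPSC. CBX5 rose by 1.25 in Ectoderm (SE 0.33, adjusted p = 0.00522), which became 0.20 (adjusted p = 0.657) once the length trend was removed. The changes in Endoderm and Mesoderm were -0.86 (SE 0.39, adjusted p = 0.117) and 0.19 (SE 0.35, adjusted p = 0.697). The Endoderm change passed with library totals alone (-1.19, adjusted p = 0.0252) and without hPSC repeat 1 (-1.14, adjusted p = 0.0312). The coding sequences of the 3 HP1 genes are 71.1% to 72.5% identical, with no identical run over 19 bases.

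**Figure D2:**
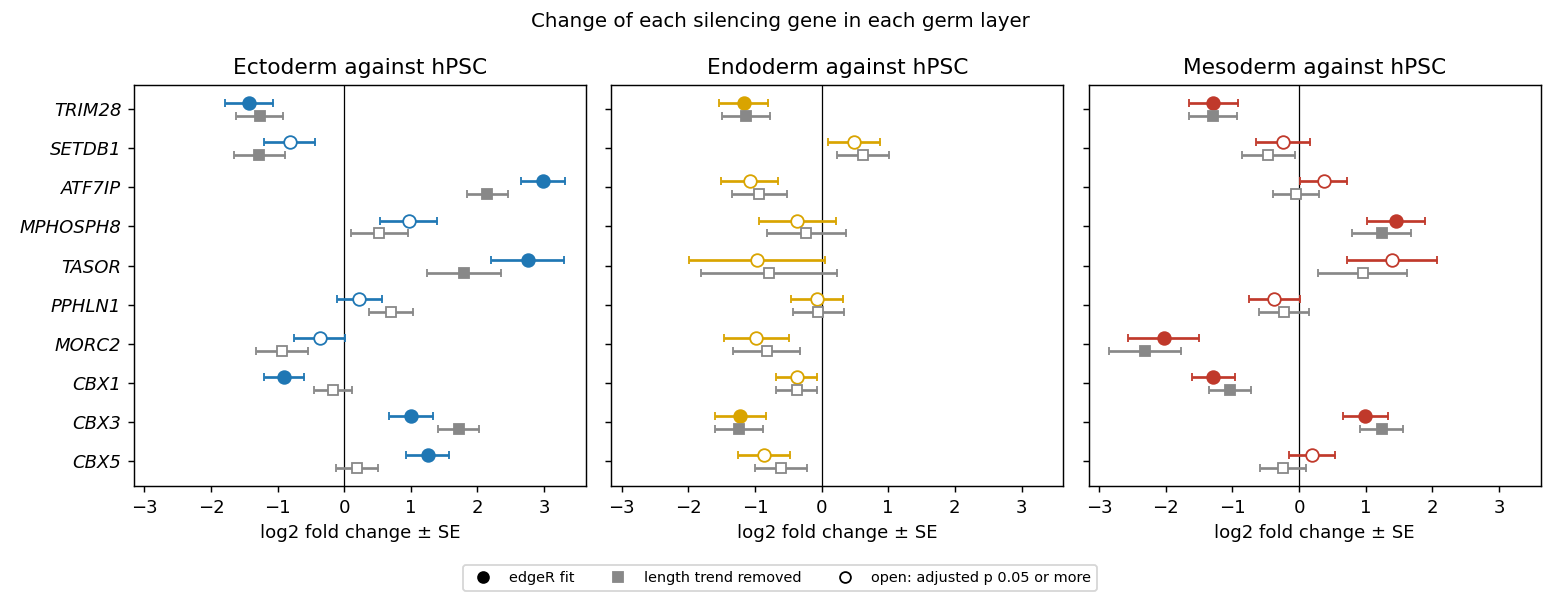
Log2 change of each member in Ectoderm, Endoderm and Mesoderm against hPSC ± SE, from the fit over all genes and with the trend on transcript length removed (grey squares; open symbols have an adjusted p of 0.05 or more). TRIM28 lies below 0 in all 3 layers, while the Ectoderm values of CBX1 and CBX5 move to -0.17 and 0.20 when the trend is removed.

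Comparing the layers directly, 6 members passed between Ectoderm and Endoderm (63.1% of all genes), 5 higher in Ectoderm (33.1%) and 1 lower (30.0%). Between Ectoderm and Mesoderm 4 passed (35.5%), 4 higher in Ectoderm (18.1%) and 0 lower (17.3%). Between Endoderm and Mesoderm 6 passed (47.1%), 1 higher in Endoderm (23.3%) and 5 lower (23.8%). ATF7IP was higher in Ectoderm than in Endoderm by 4.06 (adjusted p = 6.00e-07) and than in Mesoderm by 2.62 (adjusted p = 1.52e-05). CBX3 was lower in Endoderm than in Ectoderm by 2.22 (adjusted p = 1.02e-04), and its Endoderm minus Mesoderm difference was -2.21 (adjusted p = 2.46e-04). TASOR was higher in Ectoderm than in Endoderm by 3.72 (adjusted p = 1.84e-04). These 5 differences held in every alternative run, but TASOR was not tested over reference-matching transcripts and passed the filter through Ectoderm alone. Its difference is therefore a description. SETDB1 was the member with its highest level in Endoderm, and its Ectoderm minus Endoderm difference was -1.31 (adjusted p = 0.00673), a call lost with library totals alone (-0.49, adjusted p = 0.256), in DESeq2 (-1.28, adjusted p = 0.0777), without Ectoderm repeat 1 (-0.82, adjusted p = 0.135) and without Endoderm repeat 2 (-1.20, adjusted p = 0.0539). TRIM28 and PPHLN1 passed none of the 3 layer comparisons in this fit. PPHLN1 passed between Ectoderm and Endoderm with library totals alone (1.11, adjusted p = 0.00844) and between Ectoderm and Mesoderm with the length trend removed (0.93, adjusted p = 0.0462).

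Transcript use could be tested for 4 members, and TRIM28 in Mesoderm passed (adjusted p = 0.0271, where 7.04% of genes tested did). In Ectoderm and Endoderm 0 members passed, against 5.87% and 4.96% of genes. The form with the short first exon had 68 and 118 counts in the hPSC libraries, 74 and 63 in those of Ectoderm, 26 and 24 for Endoderm, and 20 and 9 for Mesoderm. Its share of TRIM28 counts was 38.6% and 50.2% for the hPSC libraries, 28.5% and 40.1% for Ectoderm, 39.4% and 26.1% for Endoderm, and 15.5% and 14.1% for Mesoderm. The Mesoderm minus hPSC difference of the mean shares was -29.6 percentage points, and -35.4 to -23.9 when any of these 4 libraries was left out. The call is for the gene's transcripts together. In edgeR's test of single transcripts against their gene, the short-first-exon form did not pass in Mesoderm (adjusted p = 0.0949). Both Mesoderm libraries were below all others. The form with the long first exon (ENST00000253024.10) made up 40.6% of pooled counts in hPSC and 75.1% in Mesoderm. The form lacking exons 2 and 3 made up 14.1% and 9.84%. The forms with the short and the long first exon are 2451 and 3364 nt long, and counts in Mesoderm came from longer transcripts than in hPSC. The length trend was not removed in tests of transcript use, so its part in this shift was not tested. The adjusted p was 0.0556 with a block for repeat number, 0.134 by the Simes method, 0.195 over reference-matching transcripts, and up to 0.226 with 1 library left out. Leaving out either library of Ectoderm, Endoderm or Mesoderm ended the call.

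**Figure D3:**
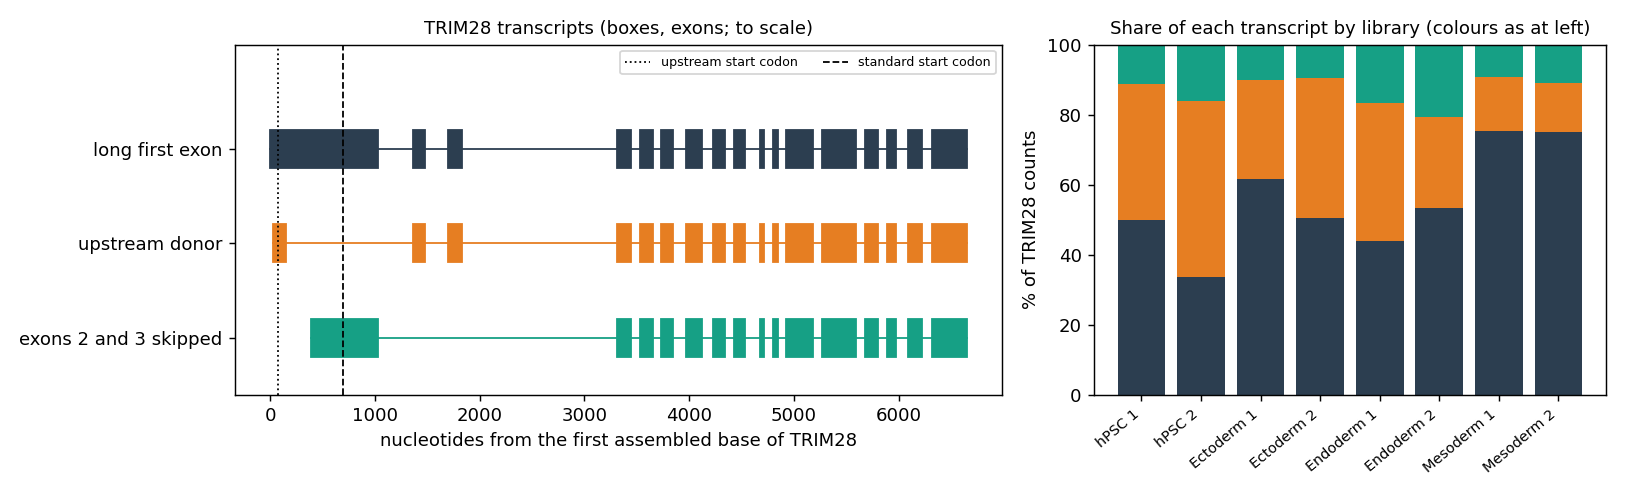
Exon structure of the 3 TRIM28 transcripts by distance from the gene's start in nt, and each transcript's share of TRIM28 counts in every library in percent, as stacked bars. The form with the short first exon takes 14.1% and 15.5% in the Mesoderm libraries and 26.1% to 50.2% in the other 6.

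ATF7IP transcripts that end before the last exon had shares of 63.6% and 55.0% for the hPSC libraries, 54.2% and 45.6% for Ectoderm, 33.3% and 50.0% for Endoderm, and 30.8% and 20.0% for Mesoderm. Pooled, this was 25 of 42 counts in hPSC (59.5%, exact 95% interval 43.3% to 74.4%) and 15 of 61 in Mesoderm (24.6%, 14.5% to 37.3%). Both Mesoderm libraries were lowest, while the test of ATF7IP transcript use in Mesoderm gave an adjusted p of 0.0581. The most counted early-ending form (4906 nt) is shorter than the full-length form ENST00000261168.9 (8835 nt), and the part of the length trend was not tested. The early-ending counts include a single-exon transcript of 6116 nt inside the gene (chr12:14405457-14411572). It held 1 of 3 and 2 of 4 such counts in the Endoderm libraries, 1 of 8 and 2 of 7 in those of Mesoderm, and 0 in hPSC. The Endoderm shares thus rest in part on this transcript. An alternative acceptor adds 3 bases to ATF7IP, shown in capitals in the first of these lines, and among transcripts that hold this exon the longer form took 27 of 41 pooled hPSC counts (65.9%), against 557 of 863 for Ectoderm (64.5%), 10 of 13 for Endoderm (76.9%) and 31 of 56 for Mesoderm (55.4%).
ATF7IP longer exon: cgtgctctccagCAGaagtagaaagtaatg
ATF7IP shorter exon: cgtgctctccagaagtagaaagtaatg

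For 13 such splicing features of the members, chosen after their counts were seen, an exact permutation test over all 105 ways to split the 8 libraries into pairs gave 0 with an adjusted p under 0.05 (lowest 0.165, smallest possible unadjusted p 0.00952). With 13 features adjusted together, a feature at that smallest p could not have passed alone. This count thus decides nothing about single features. The length trend was not removed from these shares. In this exact test the TRIM28 form with the short first exon had an unadjusted p of 0.124. ATF7IP transcripts ending before the last exon had 0.0571. The unadjusted p was under 0.05 for 3 of the 13 features. The share of SETDB1 counts ending early stood at 8.51% for hPSC, then 20.0% for Ectoderm, 7.02% for Endoderm and 31.1% for Mesoderm (exact p = 0.0286). These include a transcript of 4 exons and 3694 nt that starts inside the gene (chr1:150946719-150953541) and matches no reference. It had 0 counts in hPSC, 2 and 3 in the Ectoderm libraries, 2 and 0 for Endoderm, and 3 of 5 and 6 of 9 early-ending counts for Mesoderm. Among CBX5 transcripts that reach the gene's 3′ end, the inner first exon took 66.0%, 47.1%, 63.0% and 41.3% in the same order (exact p = 0.0381). The third feature was the skipping of TRIM28 exons 2 and 3 (exact p = 0.0286). Its pooled shares were 14.1% for hPSC, 9.83% for Ectoderm, 19.0% for Endoderm and 9.84% for Mesoderm. Among CBX3 transcripts that start at the inner first exon, those with it extended or joined to exon 2 were 0 of 33 in Endoderm (exact upper limit 10.6%) and 17 of 102 in hPSC (16.7%). The hPSC share rested on repeat 1, at 25.4% against 2.56% in repeat 2. Transcripts that match no reference transcript made up 72.2% of TASOR counts, 66.9% of MPHOSPH8, 63.5% of SETDB1 and 57.7% of PPHLN1, against 0% of CBX1 and 14.5% of CBX3.

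**Figure D4:**
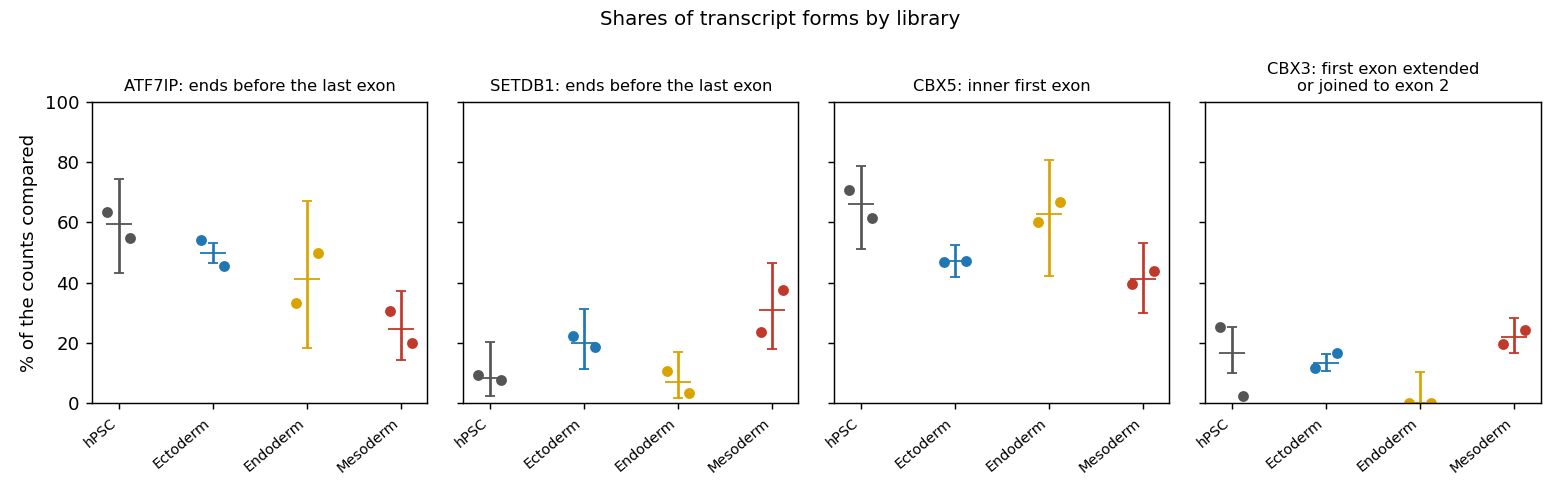
Share in percent of the counts compared that alternative forms of ATF7IP, SETDB1, CBX5 and CBX3 carry (all counts for ATF7IP and SETDB1, the subsets named above for CBX5 and CBX3), with 1 point per library and bars for the pooled share with its exact 95% interval. ATF7IP forms ending before the last exon take 20.0% and 30.8% in Mesoderm and 55.0% and 63.6% in hPSC.

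Other genes of the pathway were taken from lists chosen with earlier results known. Of 33 partners and cofactors, 14 rose and 4 fell in Ectoderm, whereas 1 rose and 8 fell in Endoderm, and 6 rose and 6 fell in Mesoderm. Over all genes tested, 23.9% rose and 24.8% fell in Ectoderm, against 13.4% and 13.8% for Endoderm and 16.9% and 18.3% for Mesoderm. With the length trend removed the partner counts were 7 and 4, 3 and 7, and 1 and 8 for the same layers, and with library totals alone 15 and 3, 1 and 12, and 7 and 3. ZNF638, a HUSH-associated zinc finger gene, rose by 2.59 in Ectoderm and 1.67 in Mesoderm, and ATRX, a remodeller at heterochromatin, rose by 2.69 in Ectoderm. Of 13 tested KRAB zinc finger genes that bind transposons or imprinted regions, 7 rose and 0 fell in Ectoderm (5 and 1 with the length trend removed), among them ZNF91 by 2.54. ZNF445 fell by 2.31 in Endoderm. Of the 5 other H3 lysine 9 methyltransferases tested, SUV39H2 rose by 1.70 in Ectoderm, EHMT1 and EHMT2 fell in Endoderm (-1.63 and -1.02), and EHMT2 fell in Mesoderm (-1.14). With the length trend removed, SUV39H2 in Ectoderm was 0.61 (adjusted p = 0.388) and EHMT1 in Endoderm -1.47 (adjusted p = 0.0517). EHMT1 had 132 and 25 counts in the hPSC repeats. Of 7 demethylases, 2 rose and 1 fell in Ectoderm, with KDM3A up 1.52 and KDM4A down at -1.10 (1 and 1 with the length trend removed, 4 and 0 with library totals alone). Of 14 proliferation genes, 3 rose and 5 fell in Ectoderm. In Endoderm 0 rose and 7 fell, and in Mesoderm 2 rose and 7 fell. With library totals alone these were 3 and 3, 0 and 10, and 2 and 6. TOP2A rose by 3.57 in Ectoderm and fell by 1.76 in Endoderm; its part in the members' changes was not tested.

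The genes most like the members with the smallest p in the overall test were found by Pearson's r of log2 CPM over the 8 libraries, given as a description since libraries of a group share their treatment. For ATF7IP these were PANK3 (r = 0.993), CTDSPL2 (0.988) and PRKD3 (0.988), with 179 genes over 0.95. For TASOR they were SOCS5 (0.992), NUP50 (0.991) and PLK4 (0.989), with 89 over 0.95. For CBX3 they were TTC13 (0.980), NIPSNAP2 (0.979) and ZNF75A (0.979), with 70 over 0.95.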

How the data were processed

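Long-read RNA of 8 libraries was analysed from transcript counts that the authors deposited for a combined assembly and for each group's own assembly. Per the submitters' processing notes, minimap2 and StringTie were used with GRCh38 (hg38); their versions are not given in the sources used here. The deposited counts are whole numbers; the Endoderm columns were entered as estimated counts deposited by the authors only because of a column-name check, and nothing was rounded. Counts were summed by gene. edgeR 4.0.16 (R 4.3.3, limma 3.58.1) was fitted to all 4 groups together, with TMM factors (0.712 in Endoderm to 1.30 in Ectoderm), a minimum count of 10 (17.4 CPM), the quasi-likelihood test and Benjamini-Hochberg adjustment at 0.05. Transcript use was tested with edgeR's diffSpliceDGE. Library totals were 503840 to 1180888, so 3 counts equal 2.54 to 5.95 CPM; intervals cover counting error only. Repeats are not stated to be separate cultures, so p-values measure the spread between these samples, which may be technical.

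By rule, all 10 members are named, their transcripts from 10% of the gene's counts in any group can be named, and up to 4 genes of each list with the smallest adjusted p are named; 1 such gene is not reported here. The members and lists were chosen with earlier results of these data known. Alternatives were DESeq2 1.42.0, RLE factors, no filter, a replicate block, other gene definitions, a length trend (lowess) and leaving out each library. Library totals alone, and leaving out libraries for single transcript shares, were chosen after seeing the data. Of 29 reference-matching member transcripts, 26 were found in GENCODE 29, all 26 with identical introns. Tested on simulated data with 200 genes changed 4-fold, the gene test recovered 79% in Ectoderm, 73.5% in Endoderm and 73% in Mesoderm, with 4.24%, 3.29% and 6.41% of calls false. For transcript use, the first and second transcripts of 100 genes were exchanged, in genes where the first had at least 4 times the second. The transcript-use test recovered 100%, with 5.66%, 9.91% and 9.91% of calls false. The TRIM28 shift was partial, so this recovery does not apply to it. No length trend was simulated in either test.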

Additional observations from a re-analysis of the deposited data

Results flagged for a closer look

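These differences between layers passed the direct edgeR test of one layer against another, given as log2 values with no explanation. TASOR, MPHOSPH8 and MORC2 passed the low-count filter only through groups where they were high, so their differences are descriptions. Between Ectoderm and Endoderm, SETDB1 differed by -1.3079, ATF7IP by 4.0644, MPHOSPH8 by 1.3298, TASOR by 3.7153, CBX3 by 2.2188 and CBX5 by 2.1142. Between Ectoderm and Mesoderm, ATF7IP differed by 2.6169, TASOR by 1.3531, MORC2 by 1.664 and CBX5 by 1.0604. Between Endoderm and Mesoderm, ATF7IP differed by -1.4475, MPHOSPH8 by -1.8229, TASOR by -2.3622, CBX1 by 0.9117, CBX3 by -2.2121 and CBX5 by -1.0538. With the length trend removed, the CBX5 differences were 0.80, 0.44 and -0.37 in the same order of pairs and no longer passed. The others lost under that setting were ATF7IP between Endoderm and Mesoderm (-0.89), MPHOSPH8 between Ectoderm and Endoderm (0.76), TASOR between Ectoderm and Mesoderm (0.85) and between Endoderm and Mesoderm (-1.74), MORC2 (1.38) and CBX1 (0.67). That setting gained CBX1 (0.87) and PPHLN1 (0.93) between Ectoderm and Mesoderm, and SETDB1 between Endoderm and Mesoderm (1.09).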

How the results depend on the processing

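Of 13 member calls against hPSC, 2 held in every alternative run (ATF7IP and TASOR in Ectoderm), and of 16 between layers, 5 did. TASOR had 16 alternatives where ATF7IP had 17, since it was not tested over reference-matching transcripts. TASOR, MPHOSPH8, MORC2 and ATF7IP had under 10 counts in some libraries, which limits their precision there. DESeq2 called 2837, 1602 and 2045 genes in Ectoderm, Endoderm and Mesoderm against hPSC (5280, 2952 and 3808 in edgeR), 1678 between Ectoderm and Mesoderm (3847) and 3213 between Endoderm and Mesoderm (5109). It called 1 member in Endoderm, 2 in Mesoderm, 1 between Ectoderm and Mesoderm and 2 between Endoderm and Mesoderm. Of 8 members tested over reference-matching transcripts, 1 was called in Endoderm (MORC2, not called otherwise) and 3 in Mesoderm. All genes called there numbered 2134 and 2783, and MPHOSPH8, called in Mesoderm in the main fit, was not tested. Library totals alone gave 4 members in Endoderm among 3205 genes called. The length trend removed gave 3 between Endoderm and Mesoderm among 4630. The cause of these changes was not tested. Library totals alone moved the median of all genes to 0.43, -0.48 and 0.25, and the share of calls that were higher from 49.0% to 68.2% in Ectoderm, 49.4% to 31.0% in Endoderm and 48.0% to 59.8% in Mesoderm. For transcript use, 155, 131 and 186 genes became 68, 56 and 78 by Simes and 93, 74 and 117 over reference-matching transcripts.

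Leaving out 1 library gave 3299 to 5957 genes in Ectoderm, 1466 to 4096 in Endoderm, 2022 to 5083 in Mesoderm, 1779 to 5634 between Ectoderm and Mesoderm, and 3403 to 6486 between Endoderm and Mesoderm. Members called were 0 to 2 in Endoderm, 1 to 5 in Mesoderm, 1 to 4 and 2 to 6 in those pairs. Transcript use gave 12 to 309, 27 to 246 and 36 to 318 genes.

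Changes of sign occurred only in values that were not called. SETDB1 in Mesoderm was 0.0222 with library totals and 0.0138 with each group's own assembly, ATF7IP in Mesoderm -0.0454 and CBX5 in Mesoderm -0.2402 with the length trend removed, and MORC2 in Ectoderm 0.08 with library totals. PPHLN1 was -0.1516 in Ectoderm over reference-matching transcripts, 0.0485 in Endoderm over all rows of the symbol and 0.0315 in Mesoderm with own assemblies. With 1 library left out the ranges were -0.4855 to 0.0249 (SETDB1, Mesoderm), -0.7165 to 0.0594 (MPHOSPH8, Endoderm), -5.3321 to 0.0413 (TASOR, Endoderm), -0.0643 to 0.6349 and -0.3541 to 0.2792 (PPHLN1, Ectoderm and Endoderm), -0.6895 to 0.105 (MORC2, Ectoderm) and -0.0926 to 0.5243 (CBX5, Mesoderm).

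Deviations of same-numbered libraries correlated between groups at -0.035 to 0.151. This does not settle whether same-numbered libraries were handled together. A replicate block gave 5107, 2798 and 3611 genes, 6, 2 and 5 members, and 102 genes in Ectoderm for transcript use.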

Other observations

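Rows listed under a member's symbol without a gene name in the annotation were left out: 4 rows with 43 counts for PPHLN1 and 1 row with 7 counts for MORC2. GENCODE 29 lists 9 CBX3 pseudogenes, of which 1 had counts (8 in all), 5 of CBX1 and 1 of CBX5, and 0 for the other members.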
